A study of Mus musculus with 10 samples.

Results

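The core circadian clock genes were followed in inflamed mouse synovium, 10 genes out of 18128 named on the array: Arntl, Clock, Per1, Per2, Per3, Cry1, Cry2, Nr1d1, Nr1d2 and Dbp. A probe set of the array, which reads the 3' part of a transcript, was taken for a gene where the platform annotation named that gene alone. The 10 genes had 23 such probe sets, and for each gene the probe set with the highest mean over all 10 arrays was used, so the level chose the probe set. The genes are the textbook core of the clock, but they were put together with earlier results of these arrays in view. Per1 was already known to be among the genes of lowest p for maslinic acid against vehicle, so its group difference is described here and not tested.

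The clock is a feedback loop of transcription. ARNTL (also called BMAL1) and CLOCK bind together to E-box elements and switch on the Per, Cry, Nr1d and Dbp genes, and the PER and CRY proteins then return to the nucleus and block ARNTL and CLOCK. NR1D1 and NR1D2 (REV-ERB alpha and beta) repress Arntl through ROR elements, and DBP activates genes through D-boxes, so that over a day Arntl transcripts run opposite to those of Nr1d1, Nr1d2, Dbp and Per3. Clocks run in fibroblasts, macrophages, cartilage and muscle alike, and Per1 can also be induced directly by glucocorticoids and by signals that act through CREB.

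All mice were male DBA/1J animals, bought at 5 weeks of age and labelled 8 weeks old, kept at 12 h of light and 12 h of darkness. All carried collagen antibody-induced arthritis (CAIA). An antibody against type II collagen (1 mg, day 8) and then lipopolysaccharide (25 µg, day 11) brought on the disease, and the mice were killed on day 12. As vehicle, 5 mice received only corn oil. The other 5 received maslinic acid, a triterpene of olives, suspended in that oil and given orally each day at 200 mg/kg. The 5 mice per group were picked from larger groups by a criterion that the sources used here do not give. Untreated mice were not analysed here, so both groups had arthritis. The labels give the day of collection and no hour.

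Each mouse gave 1 array of synovium from the left hind leg, and precision is limited by how many arrays there are. The level of a probe set resembles a log2 intensity, yet arrays differ very little in it, and 93.5% of probe sets had a range under 0.001. Values are therefore given as z, the distance of an array from the gene's mean over the 10 arrays in units of the gene's SD over those arrays. Group differences are given as Hedges' g, the mean with maslinic acid less the mean with vehicle, divided by the within-group SD and corrected for small samples. Neither is a fold change. The SD over the arrays in deposited units ran from 1.33e-05 for Cry1 and 1.43e-05 for Per2 to 0.0109 for Dbp, and since values carry 6 decimals, Cry1 and Per2 rest on few rounding steps.

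Markers of synovial fibroblasts were all above 47.6% of genes in level, with Prg4, the lubricin gene of the lining, among them. Muscle genes were also present, and the mean z of 8 muscle markers ran from -1.74 to 0.80 in vehicle and from -0.74 to 0.95 in maslinic acid mice. The mean z of 7 neutrophil markers ran from -0.10 to 1.30 in vehicle and from -0.64 to -0.28 in maslinic acid mice, but S100a8 and S100a9 among them hold only 2 distinct values, a rounding step apart. Over the 5 neutrophil markers with 10 distinct values, a score added after the data were seen, the mean z ran from -0.18 to 1.38 in vehicle and from -0.86 to -0.13 in maslinic acid mice, and the groups overlapped. In bulk tissue, fewer cells of a type and less RNA per cell cannot be told apart. Vehicle replicates 3 and 5 had the lowest array quality weights in limma (0.401 and 0.309, against 0.809 to 2.25 for the others).

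The promoters of several of these genes hold the elements through which the loop is known to close. RefSeq promoter windows (build GRCm38.p6, 250 bases before to 50 after a transcript start) were found for 9 of the 10 genes, in 13 windows; Per2 had none. They were searched on both strands for the E-box CACGTG, its variant CACGTT, the D-boxes TTATGTAA and TTATGCAA, the ROR element (RORE), the cAMP response element TGACGTCA and the glucocorticoid response element (GNACA, any 3 bases, then TGTNC). The stretches that hold matches are shown 5′ to 3′ on the strand of the gene, with the matches in capitals, because the genes they belong to are those whose values are compared below. No match overlapped another.
Per1 E-box: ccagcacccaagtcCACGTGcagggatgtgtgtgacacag
Per1 D-box: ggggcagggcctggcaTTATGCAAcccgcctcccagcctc
Per3 D-boxes: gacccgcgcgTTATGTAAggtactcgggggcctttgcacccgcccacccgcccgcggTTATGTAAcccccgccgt
Cry1 variant and canonical E-box: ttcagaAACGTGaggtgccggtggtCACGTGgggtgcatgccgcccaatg
Cry2 variant E-box: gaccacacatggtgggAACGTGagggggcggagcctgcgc
Nr1d1 variant E-box: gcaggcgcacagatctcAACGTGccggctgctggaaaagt
Arntl RORE: ggaaggcagAAAGTAGGTCAgggacggagg

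The Per1 stretches lie at chr11:69098769-69098808 and chr11:69098909-69098948 on the plus strand, with the E-box starting 166 and the D-box 24 bases before the start. The Per3 stretch lies at chr4:151044806-151044880 on the minus strand, with D-boxes that end 198 and 151 bases before the start. The Cry1 stretch is at chr10:85185090-85185139, the Cry2 stretch at chr2:92434212-92434251 and the Nr1d1 stretch at chr11:98775383-98775422, all on the minus strand. The Arntl element, at chr7:113207528-113207557 on the plus strand, lies just after a transcript start. The canonical E-box was found in the windows of 2 clock genes and in 7.15% of all 32851 windows, and the variant E-box in those of 3 clock genes and in 4.69%. The D-box TTATGTAA stood in 0.938% of all windows, TTATGCAA in 0.743% and the RORE in 0.384%, each in 1 clock gene. The cAMP response element, found in 1.79% of all windows, and the glucocorticoid response element, in 0.475%, had no match in the clock gene windows. A match is a sequence and not a shown binding site, and no match says only that these letters are absent from this window.

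The main comparison set the clock genes of maslinic acid mice against those of vehicle mice, all with arthritis. Per1, Arntl, Cry2 and Clock had the 4 highest group differences of the 10 genes, and Per3, Dbp, Per2 and Nr1d2 had lower means with maslinic acid. In all, 6 clock genes had higher and 4 had lower means (median g 0.26), against 48.1% of genes with higher means over the whole array (median g 0.00). No clock gene passed the limma test with Benjamini-Hochberg adjustment at 0.05, nor did any of the 18128 genes (0% called). At an unadjusted p under 0.05 in limma, 2 clock genes were higher and 0 lower, against 4.22% of genes higher, 4.34% lower and 8.56% either way over the array. Per1 is 1 of these 2 genes, and nothing is read from its part in the count. The groups did not overlap in 1 clock gene, Per1, against 0.645% of all genes in that direction and 1.38% in either. Since Per1 was known for its low p beforehand, nothing is read from this either.

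**Figure D1:**
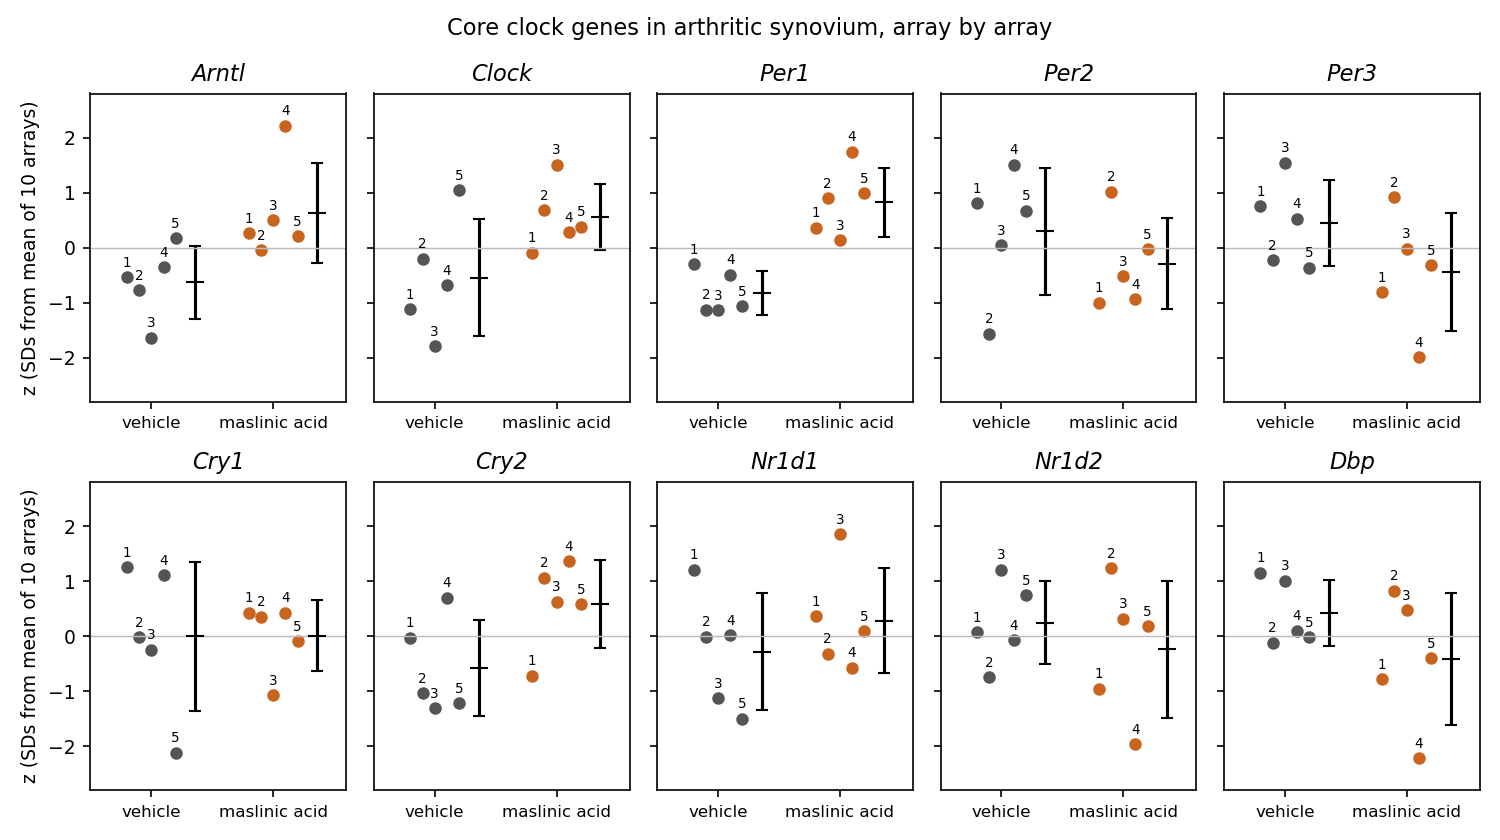
Values of the 10 clock genes on each of 10 arrays, as z (SDs from the gene's mean over the arrays). Points are mice with their replicate number, and the bar beside each group is the mean ± SD (n = 5). Only in the Per1 panel do the groups not overlap, and maslinic acid replicate 4 is the lowest point for Per3, Nr1d2 and Dbp and the highest for Per1 and Arntl.

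Arntl, the gene of the loop's main activator, was at z of -0.54, -0.78, -1.64, -0.36 and 0.17 in vehicle replicates 1 to 5, and at 0.26, -0.04, 0.49, 2.22 and 0.21 with maslinic acid. The groups overlapped in a single mouse per side, with 4 of 5 maslinic acid arrays above the highest vehicle array. The means were -0.63 ± 0.66 and 0.63 ± 0.91 (SD, n = 5 each), a g of 1.43 (95% confidence interval 0.08 to 2.71). This did not pass over all genes (limma adjusted p = 0.552, unadjusted p = 0.0317). Its g was 0.45 after quantile normalization and 0.23 when the array medians were aligned, so the size depended on the scaling. The array medians had an SD of 0.000593, above that of Arntl (0.000248) and of 94.9% of genes. Aligning them adds a shared course to such genes, so the aligned values here and below say little about a single gene. The other Arntl probe set, with 3 distinct values, gave g = -0.54 and did not follow the one used (r = 0.20 over the 10 arrays).

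Clock, the partner of Arntl, was at z of -1.12, -0.20, -1.79, -0.69 and 1.04 in vehicle and at -0.09, 0.68, 1.51, 0.28 and 0.38 in maslinic acid mice. Vehicle replicate 5 was the second highest of all arrays, while vehicle replicate 3 was the lowest, so the groups overlapped. The g was 1.15 (95% confidence interval -0.13 to 2.37; limma adjusted p = 0.595). All 3 other Clock probe sets gave positive g, from 0.65 to 0.87. With the array medians aligned g was 0.17, and without vehicle replicate 5 it was 2.11.

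Per1, a repressor of the loop that also answers acute signals, was at z of -0.30, -1.13, -1.14, -0.49 and -1.06 in vehicle mice. In maslinic acid mice it was at 0.36, 0.90, 0.14, 1.74 and 0.99. Each maslinic acid array was above each vehicle array, with vehicle replicate 1 and maslinic acid replicate 3 as the nearest pair. The group means were -0.83 ± 0.40 and 0.83 ± 0.63 (SD, n = 5 each), and g was 2.85. This g was above that of 99.9% of genes, a rank foreseen from its known low p and not read as a result. It was 2.32 after quantile normalization and 1.21 when the array medians were aligned. Per1 had 1 probe set, so no other probe set bears on it.

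Per2 did not share this pattern. It was at z of 0.81, -1.56, 0.04, 1.51 and 0.67 in vehicle and at -1.0, 1.02, -0.52, -0.94 and -0.03 in maslinic acid mice. Values of both groups were mixed, with vehicle replicate 2 the lowest array and vehicle replicate 4 the highest. The g was -0.52 (95% confidence interval -1.66 to 0.64; limma adjusted p = 0.786). It was -1.26 without vehicle replicate 2, -0.27 without vehicle replicate 4, -0.88 without maslinic acid replicate 2 and -0.21 when the array medians were aligned. The other 2 Per2 probe sets gave -0.22 and -0.90, and correlated with the one used at r = 0.64 and 0.66 over the arrays. The first of these had the widest range of the Per2 probe sets.

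Per3, a Per gene that is strongly rhythmic in peripheral tissues, was at z of 0.76, -0.23, 1.54, 0.52 and -0.37 in vehicle. With maslinic acid it was at -0.81, 0.92, -0.02, -2.0 and -0.32. The lowest arrays were maslinic acid replicates 4 and 1, while maslinic acid replicate 2 was as high as the upper vehicle arrays. The g was -0.86 (95% confidence interval -2.03 to 0.36; limma adjusted p = 0.658), and -1.34 without maslinic acid replicate 2. Of the 5 other Per3 probe sets, 4 followed the one used (r from 0.91 to 0.96) and gave g from -1.17 to -0.85. The remaining probe set, with 3 distinct values, gave 0.77 (r = 0.18).

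Per1 was set against its paralogues array by array. The z of Per1 minus that of Per3 was -1.06, -0.90, -2.68, -1.01 and -0.70 in vehicle and 1.17, -0.02, 0.15, 3.74 and 1.31 in maslinic acid mice. The groups did not overlap for this quantity, and its means were -1.27 ± 0.80 and 1.27 ± 1.5. The z of Per1 minus that of Per2 was -1.11, 0.43, -1.18, -2.0 and -1.73 in vehicle and 1.37, -0.12, 0.65, 2.68 and 1.02 in maslinic acid mice. Here vehicle replicate 2 lay above maslinic acid replicate 2, and the means were -1.12 ± 0.94 and 1.12 ± 1.03. These differences were not tested, because Per1 entered with its own group difference known. Over the 10 arrays Per1 showed r = -0.54 with Per3 (Spearman rho -0.46; permutation p = 0.104 and 0.190; adjusted p = 0.312 and 0.496 over 45 pairs) and r = -0.13 with Per2 (rho -0.10; permutation p = 0.721 and 0.788; adjusted p = 0.818 and 0.886). Without the 2 arrays farthest from the Per1 median, maslinic acid replicates 4 and 5, r was -0.07 with Per3 and 0.15 with Per2. With the group means removed it was -0.30 and 0.30.

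**Figure D2:**
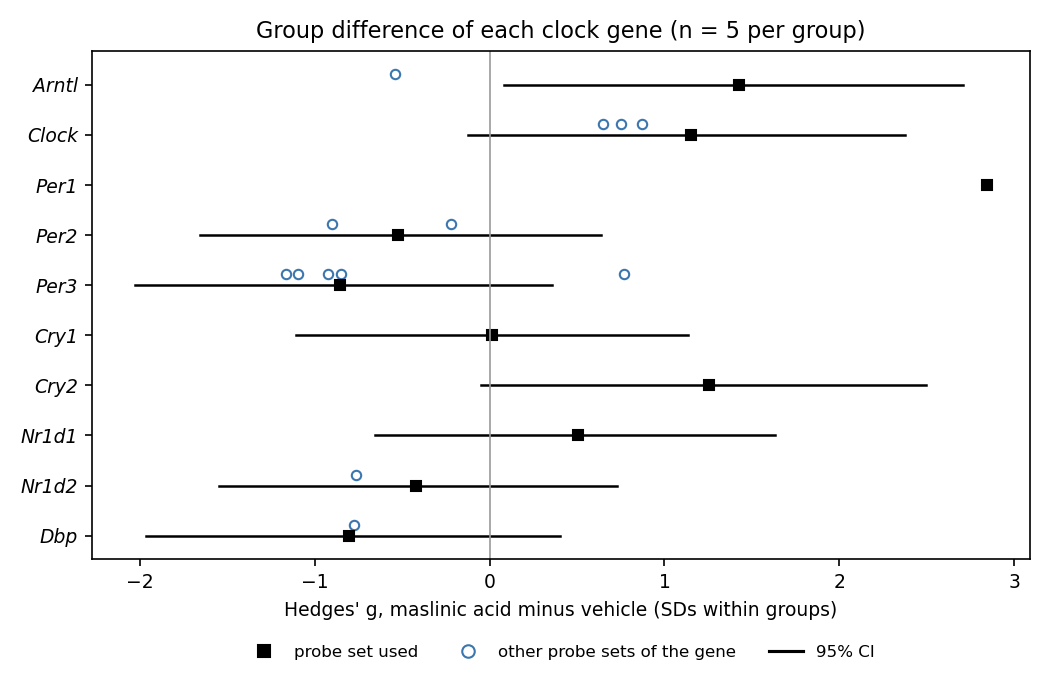
Hedges' g (maslinic acid minus vehicle, in SDs within groups, n = 5 per group) of each clock gene. Squares are the probe sets used, lines their 95% confidence intervals (none is drawn for Per1, whose difference is a description), and open circles the other probe sets of the same gene. The interval of Arntl lies above 0, and all others drawn extend to both sides of 0. Those of Clock and Cry2 lie mostly above 0 and those of Per3, Dbp and Per2 mostly below.

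The Cry genes encode the partners of the PER proteins in repression. Cry2 was at z of -0.03, -1.04, -1.31, 0.69 and -1.22 in vehicle and at -0.72, 1.06, 0.62, 1.36 and 0.58 in maslinic acid mice. Of the maslinic acid arrays only replicate 1 was low, and of the vehicle arrays replicate 4 was high. The g was 1.26 (95% confidence interval -0.05 to 2.5; limma adjusted p = 0.583), 0.46 after quantile normalization, 0.18 with the array medians aligned and 0.75 without vehicle replicates 3 and 5. Cry1 was at z of 1.25, -0.02, -0.25, 1.10 and -2.12 in vehicle and at 0.43, 0.35, -1.07, 0.43 and -0.10 with maslinic acid. The vehicle arrays held both the highest and the lowest values, and g was 0.01 (-1.11 to 1.13; limma adjusted p = 1.00), with a sign that changed under several settings.

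Nr1d1 and Nr1d2 encode the REV-ERB repressors of Arntl. Nr1d1 was at z of 1.21, -0.01, -1.13, 0.01 and -1.50 in vehicle and at 0.37, -0.32, 1.86, -0.58 and 0.09 with maslinic acid, with groups mixed. Its g was 0.50 (95% confidence interval -0.66 to 1.64; limma adjusted p = 0.794), but -0.92 after quantile normalization and -0.16 when the array medians were aligned, so it has no settled direction. It was 0.95 without vehicle replicate 1, 0.31 without vehicle replicate 3, 0.24 without vehicle replicate 5 and 0.18 without maslinic acid replicate 3. Nr1d2 was at z of 0.07, -0.75, 1.2, -0.07 and 0.74 in vehicle and at -0.95, 1.23, 0.31, -1.97 and 0.18 with maslinic acid. Maslinic acid mice held the highest array, replicate 2, and the 2 lowest, replicates 4 and 1. The g was -0.42 (-1.55 to 0.73; limma adjusted p = 0.821), and the other Nr1d2 probe set gave -0.76. Its g was -0.05 without maslinic acid replicate 4, -0.26 without replicate 1 and -0.84 without replicate 2 of that group. It was -0.64 without vehicle replicate 2, -0.21 without vehicle replicate 3 and 0.01 without vehicle replicates 3 and 5.

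Dbp, the output factor that acts through D-boxes, was at z of 1.15, -0.12, 1.01, 0.10 and -0.02 in vehicle and at -0.79, 0.83, 0.47, -2.22 and -0.41 in maslinic acid mice. Maslinic acid replicates 1, 4 and 5 were below all vehicle arrays, and replicates 2 and 3 lay among them. The g was -0.81 (95% confidence interval -1.97 to 0.40; limma adjusted p = 0.672), and -0.52 without maslinic acid replicate 4. The other Dbp probe set gave -0.78 and tracked the one used closely (r = 0.99). The probe set used is of a type that can match more than 1 transcript.

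The second question was whether genes of the loop varied together or in opposite directions from mouse to mouse. Dbp, Per3 and Nr1d2 rose and fell together over the 10 arrays, and Arntl ran opposite to Per3 in the values as deposited. Of 45 pairs, 6 passed at an adjusted p under 0.05 (Pearson r with 100000 permutations of the arrays, two-sided, Benjamini-Hochberg over the 45). Of these, 5 were positive and 1 was negative. Per1 with Arntl and Per1 with Cry2 are among the 6, and their r contains the known group difference of Per1. After removal of the group means 4 pairs passed, none of them with Per1. With Spearman rho, 1 pair passed, Per3 with Dbp.

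Per3 and Dbp were the closest pair, with r = 0.94 (permutation p = 0.00016, adjusted p = 0.0072) and rho = 0.92 (permutation p = 0.00049, adjusted p = 0.022). The order of the mice was nearly the same for both genes: vehicle replicates 1 and 3 and maslinic acid replicate 2 were the 3 highest, and maslinic acid replicates 1 and 4 the 2 lowest. Without the 2 arrays farthest from the Per3 median, vehicle replicate 3 and maslinic acid replicate 4, r was 0.88. With the group means removed it was 0.93. The pair passed after quantile normalization (r = 0.89) and with the array medians aligned (r = 0.78), a scaling in which 21 of the 45 pairs passed. It also passed with vehicle replicates 3 and 5 left out (r = 0.96, permutation adjusted p = 0.0373). It narrowly did not pass without maslinic acid replicate 4 (r = 0.88, permutation adjusted p = 0.0529). Of the clock gene windows, those of Per3 and Per1 held D-box matches. Per1 was at r = -0.57 with Dbp (-0.415 with the group means removed), and Nr1d2, without a D-box match, was at 0.84. A part of the D-boxes in these values was not tested.

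Nr1d2 joined this pair with r = 0.84 to Dbp (rho 0.69; permutation p = 0.00263 and 0.0346; adjusted p = 0.0291 and 0.252) and r = 0.84 to Per3 (rho 0.67; permutation p = 0.00252 and 0.0392; adjusted p = 0.0291 and 0.252). Without the 2 arrays farthest from the Nr1d2 median these were 0.62 and 0.63. After quantile normalization they were 0.89 and 0.80, and with the array medians aligned 0.45 and 0.83; Per3 with Nr1d2 did not pass in the first (permutation adjusted p = 0.138), nor Nr1d2 with Dbp in the second (0.262). Nr1d1 did not follow its paralogue (r = -0.15 with Nr1d2, 0.21 with Dbp and 0.03 with Per3), nor did these pairs pass.

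Arntl ran opposite to Per3 at r = -0.86 (rho -0.72; permutation p = 0.00311 and 0.0234; adjusted p = 0.0291 and 0.252). Against Dbp it was at r = -0.80 (rho -0.62; permutation p = 0.00892 and 0.0607; adjusted p = 0.0573 and 0.303). Maslinic acid replicate 4, with the highest Arntl and the lowest Per3 and Dbp, and vehicle replicate 3, with the lowest Arntl and the highest Per3, are the ends of this relation. Without these 2 arrays r was -0.41 with Per3 and -0.29 with Dbp, so the opposite course rests on them. It was also weaker in other scalings. After quantile normalization Per3 with Arntl was at r = -0.40 and Dbp with Arntl at -0.33 (permutation adjusted p = 0.615 for each). When the array medians were aligned they were at 0.06 and -0.50 (permutation adjusted p = 0.868 and 0.22). The SD of the array medians (0.000593) is above that of Arntl (0.000248), so these aligned values cannot decide on the relation. Among 6742 other genes with 10 distinct values, Per3 had the second lowest pooled correlation with Arntl and Dbp the 15th lowest. When the group means were removed, Per3 ranked 5 and Dbp 28 from the bottom.

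**Figure D3:**
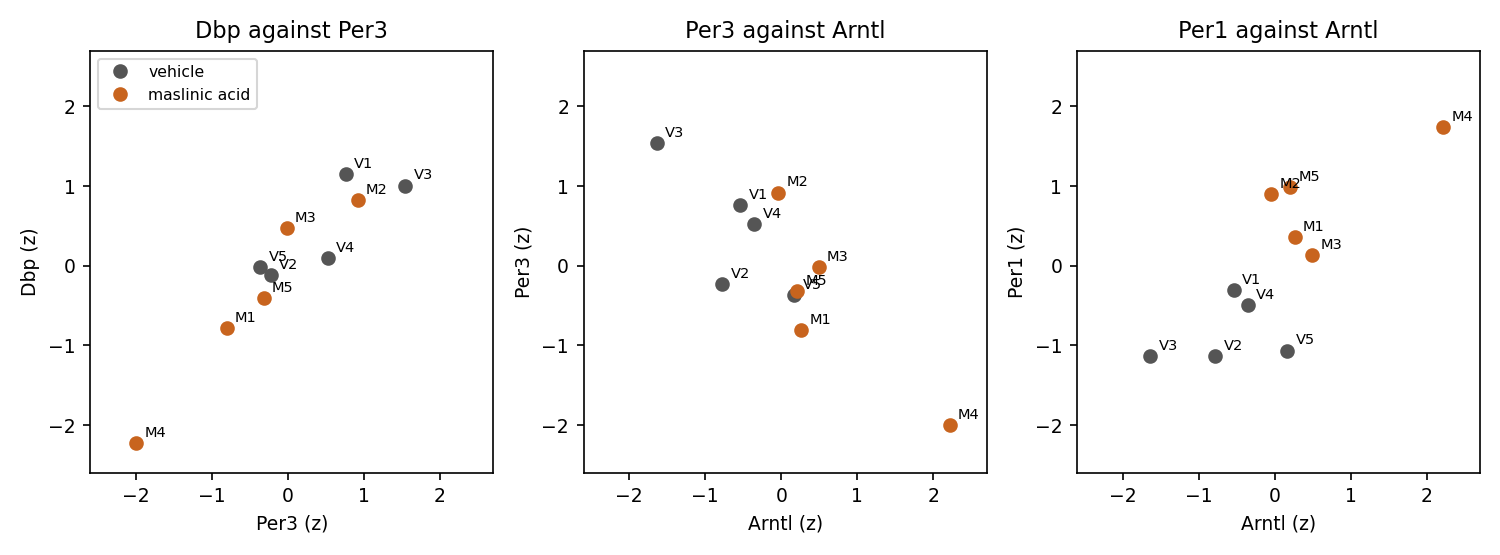
Clock genes plotted against each other, with 1 point per array (V vehicle, M maslinic acid, with the replicate number) and both axes in z. Dbp rises with Per3 along the whole range (r = 0.94), while the fall of Per3 with Arntl (r = -0.86) is drawn mostly by V3 and M4; Per1 rises with Arntl (r = 0.79) and the groups separate along the Per1 axis.

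The pooled r of Per1 contains its known group difference and is a description, so its p-values are not read as a test. It was 0.79 with Arntl (rho 0.78; permutation p = 0.00323 and 0.0104; adjusted p = 0.0291 and 0.179) and 0.82 with Cry2 (rho 0.77; permutation p = 0.00583 and 0.0119; adjusted p = 0.0437 and 0.179). With the group means removed these were 0.57 and 0.73, and neither pair was among the 4 that then passed. After quantile normalization they were 0.26 and 0.55 (permutation adjusted p = 0.722 and 0.474). Without the 2 arrays farthest from the Per1 median they were 0.60 and 0.74. Arntl and Clock were at r = 0.61 (rho 0.70; permutation p = 0.0585 and 0.0298; adjusted p = 0.239 and 0.252). Without maslinic acid replicate 4, 0 of the 45 pairs passed, against 6 with all arrays; at an unadjusted permutation p under 0.05 the counts were 6 and 9. Without vehicle replicate 1, 3 pairs passed. Without vehicle replicate 3, both vehicle replicates 3 and 5, or any of maslinic acid replicates 1, 2 and 5, 1 pair passed, Per3 with Dbp.

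**Figure D4:**
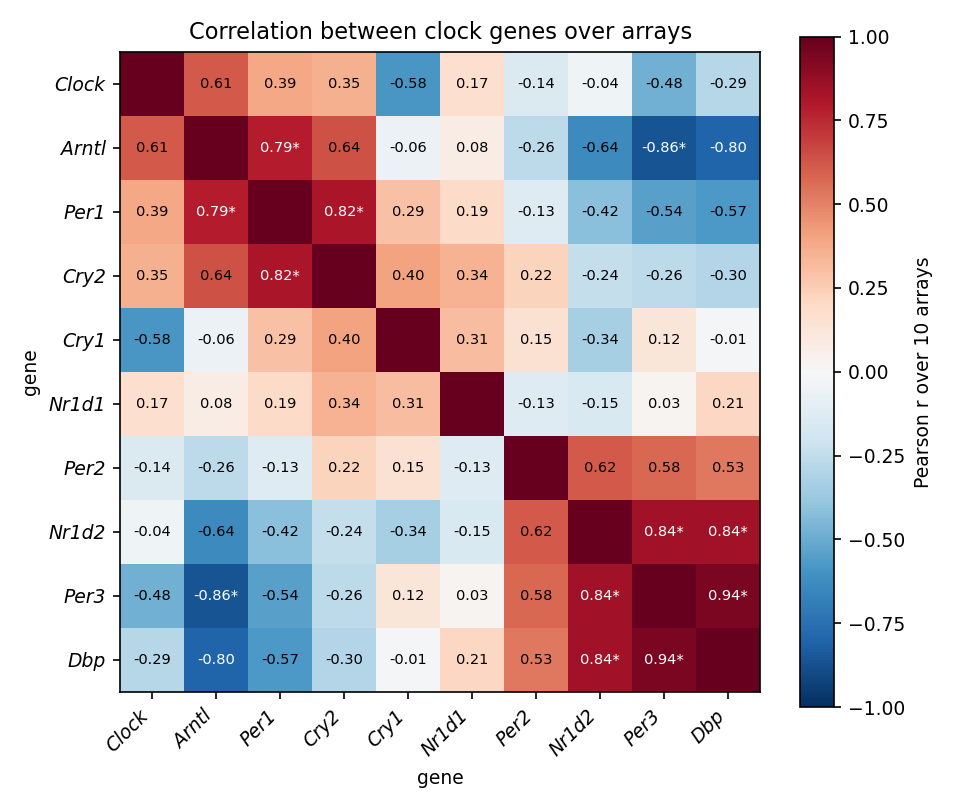
Pearson r over 10 arrays for all 45 pairs of clock genes, from blue (-1) through white (0) to red (1); an asterisk marks an adjusted permutation p under 0.05. Nr1d2, Per3 and Dbp form a block at 0.84 to 0.94; of these only Per3 passed with Arntl, at -0.86, and the Per1 values contain its group difference.

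Averaged by arm, the loop's activators and its feedback genes lay on opposite sides of their means in vehicle replicates 1, 3, 4 and 5 and maslinic acid replicates 1 and 4, and on the same side in the other mice. The mean z of Arntl and Clock was -0.83, -0.49, -1.71, -0.52 and 0.61 in vehicle and 0.09, 0.32, 1.00, 1.25 and 0.30 in maslinic acid mice. All vehicle arrays but replicate 5 were below all maslinic acid arrays. The mean z of the 6 feedback and output genes (Per1, Per2, Per3, Nr1d1, Nr1d2 and Dbp) was 0.62, -0.63, 0.26, 0.26 and -0.26 in vehicle and -0.47, 0.76, 0.37, -0.99 and 0.08 with maslinic acid. These values were mixed between groups. The feedback arm minus the Arntl and Clock arm was 0.64 ± 1.15 in vehicle and -0.64 ± 0.99 with maslinic acid (SD, n = 5 each), with overlap. Without Per1 in the feedback arm, its means were 0.22 ± 0.53 and -0.22 ± 0.90. No test was made on these scores, as the genes were chosen with results known.

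**Figure D5:**
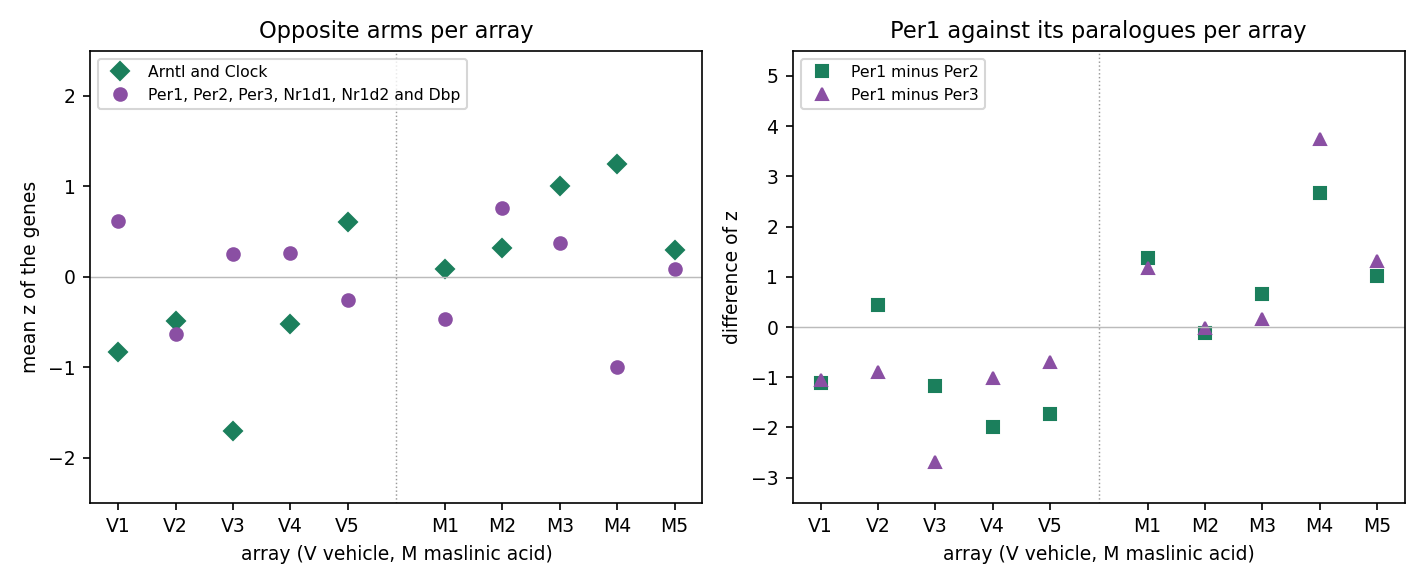
Left, mean z of Arntl and Clock (diamonds) and of the 6 feedback and output genes (circles) on each array. Right, z of Per1 minus z of Per2 (squares) and of Per3 (triangles); V marks vehicle and M maslinic acid mice. Maslinic acid replicate 4 has the widest gap between arms, and Per1 minus Per3 is at -0.70 or lower in all vehicle mice and at -0.02 or higher in all maslinic acid mice.

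Genes of the auxiliary loops and outputs showed no group difference that passed limma. Of the 10 such genes analysed, 5 had higher and 4 lower means with maslinic acid (median g 0.11); Npas2 had equal means. None reached an unadjusted p under 0.05. Nfil3, the repressor that competes with DBP at D-boxes, had g = 1.01 (95% confidence interval -0.24 to 2.20; limma adjusted p = 0.621), and Rora, an activator of Arntl, 0.69 (-0.50 to 1.84; 0.71). Arntl2, with 4 distinct values, was at -0.88 (-2.06 to 0.34; 0.696) and Bhlhe41, a repressor at E-boxes, at -0.44. Bhlhe41 holds 8 distinct values, with an SD of 1.24e-05, so it too rests on few rounding steps. Other scalings lowered the number of auxiliary genes and the next group with higher means from 13 to 6 (quantile normalization) or 4 (arrays centred on medians). The share of all genes with higher means fell likewise, from 48.1% to 30.7% and 7.29%.

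Of the relatives of Dbp, Hlf passed with it by rank correlation alone, in pairs computed after values were seen. Hlf and Tef, which encode the sister factors of DBP, were at r = 0.81 and 0.75 with Dbp (rho 0.90 and 0.73; permutation p = 0.00197 and 0.00985, and for rho 0.0008 and 0.0206). Over the 30 relations of 10 auxiliary genes with Dbp, Arntl and Per1 the adjusted p was 0.0591 and 0.0739, and for rho 0.024 and 0.154. The SD of Hlf in deposited units was 1.41e-05, so it too rests on few rounding steps. Hlf with Dbp was at 0.90 without the 2 arrays farthest from the Dbp median, and Tef at 0.62. Nfil3 went the other way, at r = -0.70 with Dbp (rho -0.58; permutation p = 0.0398 and 0.0892; adjusted p = 0.199 and 0.372) and 0.89 with Arntl (rho 0.49; permutation p = 0.00667 and 0.154; adjusted p = 0.0739 and 0.372). Without vehicle replicate 3 and maslinic acid replicate 4 the r of Nfil3 with Arntl was 0.25. No relation of the 30 passed on Pearson r. Over 6742 genes with 10 distinct values, Per3 had the highest pooled correlation of all with Dbp. Nr1d2 ranked 7, Hlf 12 and Tef 27. When the group means were removed, the ranks were 5 for Per3, 39 for Nr1d2, 59 for Hlf and 95 for Tef. These rankings were made after the pair values were seen.

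A list of genes for the stability and modification of clock proteins, which also holds Wee1 and Nampt, gave 8 higher and 1 lower of the 9 analysed (median g 0.48). Of all genes, 48.1% were higher. In this list 0 reached an unadjusted p under 0.05. Fbxl21 and Fbxw11 hold 4 and 5 distinct values, and the SDs of Btrc, Csnk1e and Gsk3b were 3.54e-06, 5.16e-06 and 7.54e-06. Those of Wee1 and Csnk1d were 1.745e-05 and 2.27e-05. All of these genes rest on few rounding steps, and most of the genes counted as higher are among them. Gsk3b, a kinase acting on several clock proteins, was at 1.09 (95% confidence interval -0.17 to 2.30; limma adjusted p = 0.603), and Nampt, an NAD-producing enzyme under clock control, at 1.08 (-0.18 to 2.28; 0.606). Btrc, the F-box protein that marks PER for degradation, was at -0.15 (-1.26 to 0.98; 0.944).

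Per1 is also a target of glucocorticoid and CREB signalling, and genes of these kinds were set beside it. All 8 glucocorticoid-induced genes had higher means with maslinic acid (median g 1.39), 4 of them at an unadjusted p under 0.05 in limma and 0 after adjustment, beside 48.1% of all genes with higher means and 4.22% higher at that p. All 8 also had higher means after quantile normalization (30.7% of all genes) and with the array medians aligned (7.29%), and 5 did, with 0 at that p, in the fit with the 7-marker neutrophil score as a covariate. Nothing is called particular to the list from this. Zbtb16 was at 2.02 (95% confidence interval 0.50 to 3.47; limma adjusted p = 0.525) and Klf9 at 1.94 (0.45 to 3.37; 0.525). The Zbtb16 probe set is of a type that can cross-hybridise. Of 7 immediate-early genes that CREB can induce, 5 were higher and 2 lower (median g 0.28), but 3 were higher without vehicle replicate 3 (median -0.22). Among them Sik1, a kinase that restrains CREB coactivators, was at 1.78 (0.34 to 3.16; 0.528), and Nr4a1 at 0.67 (-0.52 to 1.81; 0.717), while Fos was at 0.43 and Egr1 at -0.07.

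With the group means removed, the genes whose pattern over the 10 arrays was most like that of Per1 were Alpk2 (r = 0.93), Slc49a4 (0.93), Osgin1 (0.91) and Sik1 (0.91), of 6742 genes with 10 distinct values. Those most like Arntl were Slc25a33 (0.89), Vegfa (0.89), Pim3 (0.85) and Maff (0.85). Cry2 was the clock gene nearest to Per1 on this measure (0.73), and Per1 the nearest to Arntl (0.57). In the same ranking Per3 stood 5 from the bottom for Arntl (-0.83).

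Markers of cell types were also compared between groups. Those of synovial fibroblasts had a median g of 0.34 (9 of 9 higher). The median g was 0.41 for muscle (8 of 8 higher), 0.52 for macrophages (3 of 4) and 1.18 for bone (3 of 3). It was 0.62 for cartilage (4 of 4), 0.68 for fat (2 of 2) and 0.95 for endothelium (3 of 3). For neutrophils it was -0.93 (7 of 7 lower), for T cells -0.37 (2 of 3 lower) and for skin 0.60 (2 of 3 higher). None of these genes passed limma after adjustment. Of all genes, 48.1% had higher means. The neutrophil median is the g of S100a9, and S100a9 and S100a8 hold only 2 distinct values, a rounding step apart. The T cell median is the g of Cd3g, which holds 6 distinct values, and Cd3e holds 5. The skin median is the g of Krt5, which holds 7, and Krt14 holds 4. Both medians therefore rest on few rounding steps. Over the 10 arrays the score of the 5 neutrophil markers with 10 distinct values was at r = -0.80 with Clock, -0.74 with Arntl, -0.74 with Cry2 and -0.72 with Per1 (rho -0.86, -0.77, -0.71 and -0.77). Their permutation p was 0.00526, 0.0112, 0.0148 and 0.0178 (for rho 0.00273, 0.0122, 0.0274 and 0.0122), and each adjusted p was 0.0844 over 30 relations (for rho 0.0819, 0.0915, 0.137 and 0.0915). Without the 2 arrays of most extreme score r was -0.78, -0.45, -0.51 and -0.52. With this score as a covariate g was 2.31 for Per1, 0.57 for Arntl, 0.32 for Cry2, -0.09 for Clock and -2.0 for Per2. With the score of 7 markers it was 2.26 for Per1, 0.48 for Arntl, 0.24 for Cry2, 0.06 for Clock and -1.7 for Per2. Both neutrophil scores were lower with maslinic acid, and that of 7 markers did not overlap between groups. The pooled r therefore contain the group difference, and the covariates share it with the treatment. The part of these cells in the clock gene values cannot be told apart from treatment and was not tested. The muscle score gave r of 0.56 with Per1, 0.52 with Cry2, 0.40 with Arntl, -0.12 with Per3 and -0.32 with Dbp, and each adjusted permutation p was 0.349 or more over 20 relations (rho 0.56, 0.61, 0.36, -0.20 and -0.36). With the muscle score as a covariate Per1 was at 2.82, Arntl at 1.21, Dbp at -0.65 and Per2 at -1.10.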

How the data were processed

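RNA (100 ng a sample) was turned into biotinylated cRNA for 3' expression arrays, per the labels' protocols. The value of a probe set is the authors' processed score, deposited with 6 decimals; its scale is unknown. R 3.2.1 was used per the submitters' processing notes, while background correction, normalization and summary method were not given in the sources used here. Log2 values had been foreseen in the design, and the scores were tested as they stand.

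Of 39993 probe sets, 34202 named 1 gene, 931 several and 4860 none; Entrez identifiers of 34028 were in the RefSeq table. Each of 18128 genes took its probe set of highest mean (90 held 1 value on all arrays). Groups come from the sample titles. Groups were compared with limma 3.58.1 under R 4.3.3 (lmFit, then eBayes), 10 arrays, no covariate, Benjamini-Hochberg over all genes, threshold 0.05. Prior degrees of freedom were 0.478. Correlations used 100000 permutations. Python 3.11.15, pandas 2.3.3, numpy 2.4.6, scipy 1.17.1 and matplotlib 3.10.9 did the rest.

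Named were the 10 clock genes, of each wider clock list the 2 of lowest p in each direction, of the glucocorticoid and CREB lists the 2 of lowest p, and the 4 genes most like Per1 and Arntl. Members of the wider clock lists and cell markers that rest on few rounding steps were named for that limit. Fos, Egr1, Hlf, Tef and Npas2 were named, and the auxiliary pairs and the likeness to Dbp computed, after values were seen. The members and lists were chosen with earlier results of these data known. Alternatives were other scalings, eBayes settings, array weights, a replicate block, a level filter, other probe sets, marker covariates and arrays left out.

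On simulated data of this comparison with 18128 genes, limma found 8% of the genes moved by 2 SD, 80% of those moved by 4 SD and 100% of those moved by 6 SD; 5 calls were false.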

Additional observations from a re-analysis of the deposited data

Results flagged for a closer look

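Within the 5 mice of a group, a gap between the most extreme array and its nearest neighbour of more than 0.71 of the group's range was looked for in 40 groups of values, and 3 were found; chance gives about 1 in 20. Arntl in maslinic acid mice had replicate 4 apart at the top, with a gap of 0.763 of the range. Per1 minus Per3 in vehicle mice had replicate 3 apart at the bottom (0.816). Nfil3 in vehicle mice had replicate 3 apart at the bottom (0.726). These are the 2 arrays on which the opposite course of Arntl and Per3 rests.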

How the results depend on the processing

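All members kept their side of the limma threshold in each alternative run. Past it were 2 genes after quantile normalization (Klf3 and Rnf130, which then had no spread within groups) and 1 with trended and robust eBayes (BC016579), none of them a clock gene. Above the median level 5 clock genes remained, 3 with higher means, against 57.65% of all genes above that level. Wider clock genes with higher means numbered 13 in the main setting, 6 after quantile normalization, 4 with centred arrays (medians aligned) and 11 to 15 with single arrays left out. Of all genes, 48.1% were higher in the main setting, 30.7% after quantile normalization and 7.29% with centred arrays. The median g of the clock genes was -0.062 after quantile normalization, -0.17 with centred arrays, -0.083 with array weights, -0.057 without vehicle replicates 3 and 5, -0.065 with the neutrophil covariate and -0.025 to 0.62 with single arrays left out. Over all genes the median g was -0.268 after quantile normalization, -0.194 with centred arrays and -0.016 with array weights. It was -0.051 without vehicle replicates 3 and 5 and 0.034 with the neutrophil covariate. Cry1 was at -0.19 with centred arrays, -0.43 with array weights, -1.01 without vehicle replicates 3 and 5, -0.16 and -0.24 with the muscle and neutrophil covariates, and -0.65 to 0.29 with single arrays left out. Nr1d1 was at -0.92 after quantile normalization, -0.16 with centred arrays, -0.12 without vehicle replicates 3 and 5 and -0.007 with the neutrophil covariate; Nr1d2 was at 0.006 without vehicle replicates 3 and 5. Clock was at -0.093 with the score of neutrophil markers that hold 10 distinct values, a covariate added after the data were seen. Correlated pairs numbered 2 after quantile normalization, 21 with centred arrays, 3 with the mean of all probe sets, 1 without vehicle replicates 3 and 5, 1 with Spearman rho and 0 to 6 with single arrays left out. The array medians had an SD of 0.000593, above the SD of 94.9% of genes, so centring adds a shared course to most genes; other causes were not tested. Correlations of deviations between mice of the same replicate number ran from -0.38 to 0.32. Vehicle replicates 1 and 4 were most like the maslinic acid mouse of their own number, and the other vehicle replicates were not. So few mice cannot settle whether the numbers pair them. With a replicate block 0 genes passed, 6 clock genes were higher and Per1 was at 2.81.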
